A study of Mus musculus with 9 samples.

Results

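The genes described here are the matrix metalloproteinases (Mmp), the ADAM and ADAMTS proteases, the tissue inhibitors of metalloproteinases (Timp) and Reck, in male mouse liver and in a liver tumor. They were taken by gene symbol, as every Mmp, Timp, Adam and Adamts gene of the array annotation plus Reck, which gave 66 of the 18193 genes measured. This set was chosen with earlier results of these data known. Each gene was read from 1 probe set, the brightest on average of those assigned to it alone, and 30 of the 66 had more than 1 such probe set.

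The 3 tissues compared were from C57Bl6 males, each taken as 3 pieces with 1 array per piece. All mice were 12 months old, untreated and on regular chow. Wild-type liver was labelled normal with mild steatosis. Tumor pieces came from a Sart1 heterozygote (SART1+/- in the labels), in which hepatocellular carcinoma arises spontaneously from 10 months, and were labelled carcinoma with severe steatosis. The third group, labelled as liver adjacent to that tumor with altered cells and severe steatosis, is stated in the design text to come from the same SART1+/- animal. By the labels each genotype was thus 1 animal, and the p-values measure the spread between pieces, not between mice. Genotype, animal and labelled steatosis cannot be told apart in either comparison with wild-type liver.

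Metalloproteinases of these families cut proteins outside the cell with a zinc ion in the active site. Secreted MMPs degrade collagens, elastin and other matrix proteins, membrane-type MMPs also switch on other MMPs, ADAMs release growth factors and receptors from the cell surface, and ADAMTS enzymes cut proteoglycans and procollagens. TIMPs block the active site of these enzymes, and Reck is a membrane-anchored inhibitor of several MMPs. In liver these genes are best known from fibrosis, in which stellate cells and macrophages are major sources, and some ADAMs are known mainly from testis and sperm.

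The checks on the arrays were as follows. Correlations across probe sets, which are not independent replicates, were 0.996 to 0.998 between pieces of one tissue, and no 2 arrays were identical. Alb, the defining product of hepatocytes, was at 14.45 ± 0.01 in the wild-type pieces, 14.49 ± 0.03 in the adjacent-labelled pieces and 14.45 ± 0.03 in tumor (log2, SD, n = 3). These values lie close to the highest on any array, 14.51. Sart1 was at 8.34 ± 0.02, 8.37 ± 0.03 and 7.74 ± 0.03 in the same order, so the pieces labelled adjacent liver did not show the lower Sart1 of the tumor and are called adjacent-labelled here. The 3' minus 5' difference of Actb, a measure of RNA quality, was 0.86 ± 0.02, 0.85 ± 0.05 and 0.59 ± 0.09, lowest in tumor. That of Gapdh was 0.27 ± 0.02, 0.16 ± 0.02 and 0.21 ± 0.01, lowest in adjacent-labelled liver. Their part in the values below was not tested.

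Only genes with a signal were tested, those exceeding the 40th percentile of the array (5.16 to 5.26 on the log2 scale) on at least 3 of the 9 arrays. Of the 66 genes, 41 passed (62.1%, against 76.3% of all genes). The 25 others lay between 2.55 and 5.26 in every piece, and 23 of them were below the percentile on every array. They included most ADAMs known from testis or sperm, of which 4 of 16 were tested, and 2 of the 4 collagenase genes. A gene is called higher or lower below when its adjusted p from limma was under 0.05 and its difference at least 1 on the log2 scale, which is 2-fold.

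Between tumor and wild-type liver, 5 of the 41 tested genes were called higher and 2 lower. Over all 13887 genes tested, 8.41% were called higher and 4.59% lower. Between adjacent-labelled and wild-type liver, 8 of the 41 were called higher, against a background of 8.30%, and 0 lower, against 3.22%. At an unadjusted p under 0.05, 22 were higher (53.7%, against 35.5% of all genes) and 7 lower (17.1%, against 31.2%) in that comparison in limma, the only tool run. Between tumor and adjacent-labelled liver, 0 were called higher and 2 lower, against 2.10% and 2.94% of all genes. At an unadjusted p under 0.05 these were 4 (9.76%, against 23.2%) and 8 (19.5%, against 27.8%). The median difference of the 41 genes was 0.27 in tumor and 0.34 in adjacent-labelled liver relative to wild type, and -0.01 between tumor and adjacent-labelled liver. Over all genes tested it was -0.01 in each comparison. Both comparisons with wild-type liver use the same 3 control arrays. Mmp12, Mmp13, Timp4 and Adamts12 are counted here although they passed the filter only through the groups in which they are high. These counts are a description only.

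**Figure D1:**
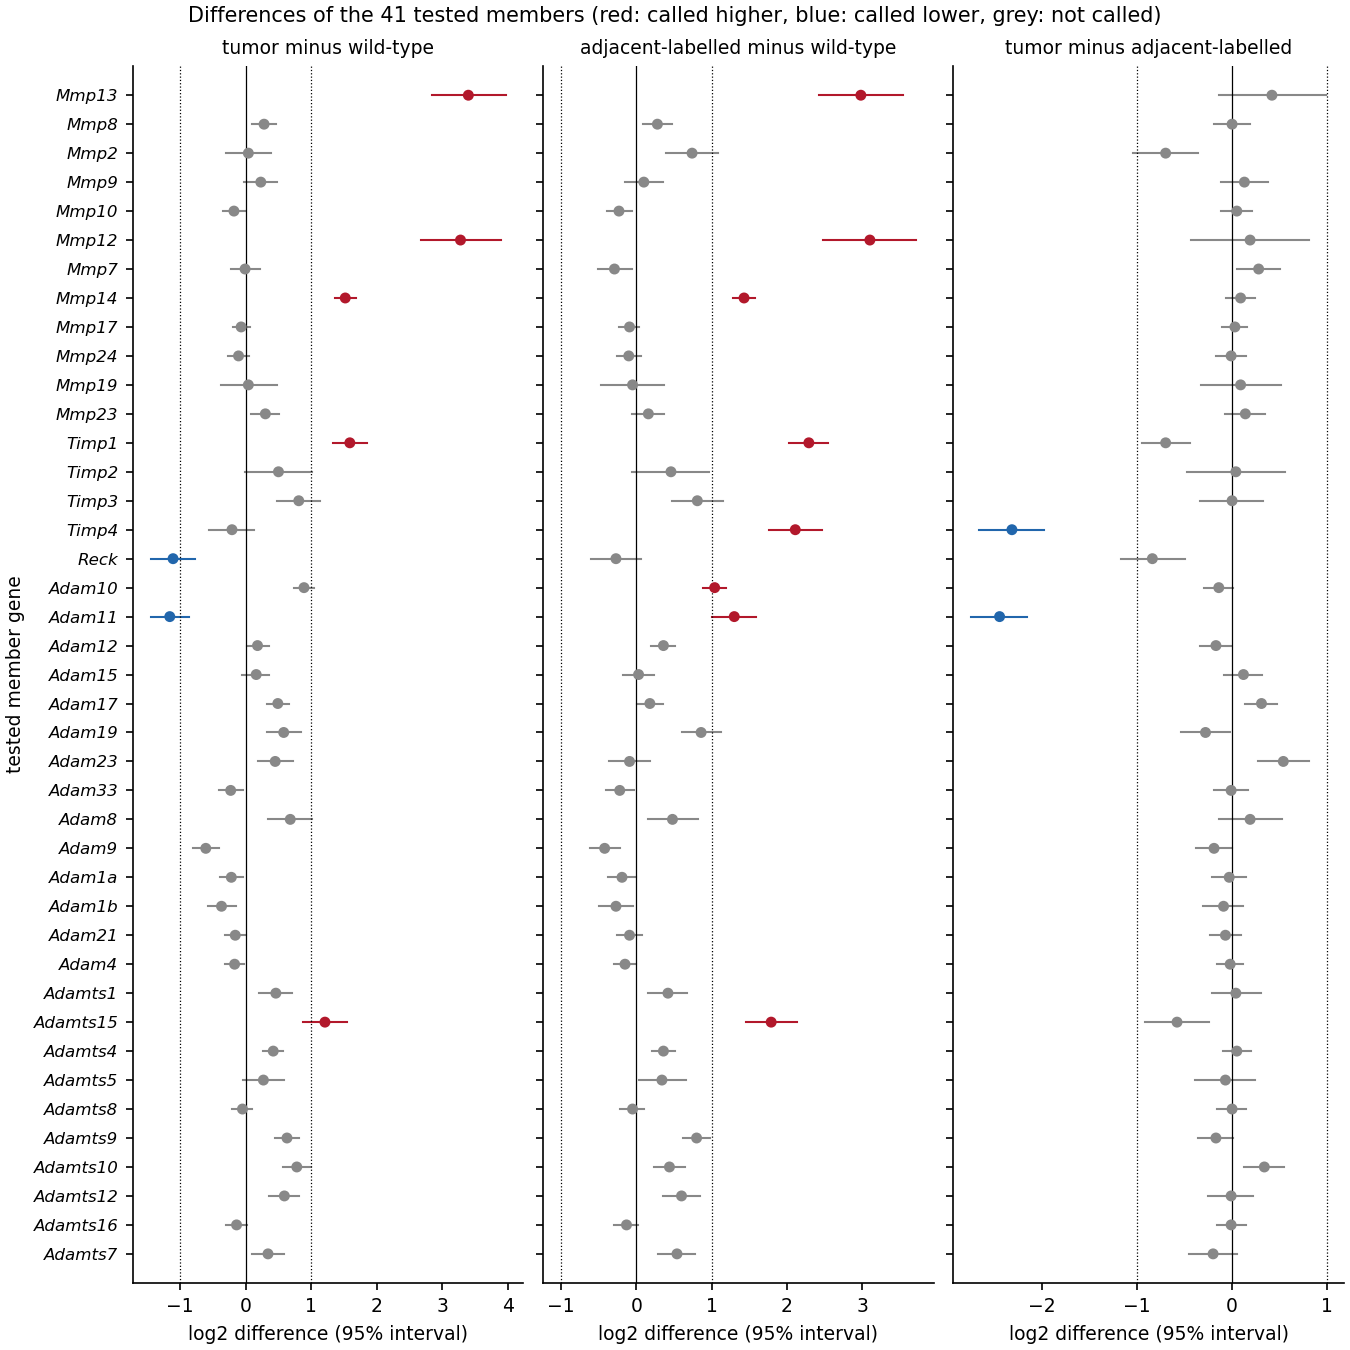
Log2 differences of the 41 tested genes (points) with 95% intervals from limma (lines) in the 3 comparisons, ordered by role, with dotted lines at a difference of 1 in size. Mmp12 and Mmp13 lie farthest to the right in both comparisons with wild-type liver, and Adam11 and Timp4 farthest to the left between tumor and adjacent-labelled liver.

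Among the probe sets used, Mmp13 and Mmp12 had the largest increases over wild type. Mmp13, a collagenase that opens fibrillar collagen, was at 2.86, 3.45 and 3.46 in the wild-type pieces, 5.78, 6.74 and 6.19 in the adjacent-labelled pieces and 6.79, 6.26 and 6.93 in the tumor pieces (log2). All 6 adjacent-labelled and tumor pieces lay above the 3 wild-type pieces, and tumor and adjacent-labelled values overlapped. The increase was 3.40 in tumor (SE 0.25, adjusted p = 8.3e-07) and 2.98 in adjacent-labelled liver (SE 0.25, adjusted p = 2.73e-06). Mmp12, the elastin-degrading metalloelastase of macrophages, was at 4.25, 3.96 and 5.08 in the wild-type pieces, 7.09, 7.80 and 7.68 in the adjacent-labelled pieces and 7.67, 7.43 and 8.04 in tumor. Here too the wild-type pieces stood apart from the other 6. The increase was 3.28 in tumor (SE 0.28, adjusted p = 2.22e-06) and 3.10 in adjacent-labelled liver (SE 0.28, adjusted p = 4.07e-06). Every wild-type value of both genes was under the 40th percentile, near background, and how large the fold change is depends on that background. Both genes thus passed the filter only through the groups in which they are high, and their adjusted p-values are descriptive. Between tumor and adjacent-labelled liver Mmp13 differed by 0.42 (95% interval -0.14 to 0.99) and Mmp12 by 0.19 (-0.43 to 0.81).

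Mmp12 and Mmp13 are neighbours in a row of MMP genes on chromosome 9 that runs Mmp13, Mmp12, Mmp1b, Mmp3, Mmp1a, Mmp10, Mmp8, Mmp27, Mmp20 and Mmp7 among protein-coding genes of RefSeq assembly GRCm38.p6. Mmp27 was not analysed here. No other member of the row was called. Mmp1a, Mmp1b, Mmp3 and Mmp20 did not pass the filter. Mmp8, the neutrophil collagenase, was at 5.93 ± 0.09 in the wild-type pieces, 6.21 ± 0.06 in the adjacent-labelled pieces and 6.21 ± 0.16 in tumor. Its difference from wild type was 0.28 in each, with adjusted p = 0.0155 in tumor and 0.0153 in adjacent-labelled liver, below the 2-fold limit. Mmp10, a stromelysin, differed by -0.18 (adjusted p = 0.0586) in tumor and by -0.23 (adjusted p = 0.0218) in adjacent-labelled liver. Mmp7, the epithelial matrilysin, differed by -0.01 (adjusted p = 0.954) and -0.29 (adjusted p = 0.0301).

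The AP-1 motif TGAGTCA, or its reverse complement TGACTCA, is a known feature of MMP promoters and binds Jun and Fos proteins. It was searched on both strands of RefSeq promoter windows, from 250 bases before to 50 after each gene start. Of the 9 measured genes of this row, 7 held it, against 2 of the 29 other members with a window and 5.95% of the 27025 genes with a window. This grouping by position was made after the matches were seen. The 100 bases before the start of 5 genes of the row are shown because the motif lies near the start both in the 2 genes that rose and in 3 that did not. They are written 5′ to 3′ on the gene's strand, with the motif in capitals. Positions are given from the gene start in GRCm38.p6, on the plus strand throughout.
Mmp13 (rose, motif from base -35, chr9:7272414-7272513): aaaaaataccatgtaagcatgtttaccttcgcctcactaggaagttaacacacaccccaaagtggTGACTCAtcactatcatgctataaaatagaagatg
Mmp12 (rose, motif from base -44, chr9:7347274-7347373): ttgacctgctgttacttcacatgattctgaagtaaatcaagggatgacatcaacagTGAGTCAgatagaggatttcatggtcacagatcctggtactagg
Mmp3 (under the filter, motif from base -46, chr9:7445722-7445821): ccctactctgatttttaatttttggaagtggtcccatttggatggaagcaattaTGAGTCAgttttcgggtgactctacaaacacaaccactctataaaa
Mmp10 (not called, motif from base -63, chr9:7502242-7502341): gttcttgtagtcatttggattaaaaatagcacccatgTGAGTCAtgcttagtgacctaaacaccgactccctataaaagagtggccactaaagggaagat
Mmp7 (not called, motif from base -63, chr9:7691990-7692089): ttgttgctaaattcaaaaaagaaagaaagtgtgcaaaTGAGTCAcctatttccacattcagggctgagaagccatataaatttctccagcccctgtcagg
Mmp12 and Mmp7 each have another start in RefSeq, upstream for Mmp12 and downstream for Mmp7, whose window holds no such motif. The windows of Mmp8 and Mmp20 hold none either. A match describes the letters and is no measurement of binding.

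Mmp14, the membrane-type MMP that activates pro-MMP2 and cuts collagen at the cell surface, was at 8.46, 8.55 and 8.43 in the wild-type pieces, 9.93, 9.82 and 9.98 in the adjacent-labelled pieces and 9.92, 10.01 and 10.08 in tumor. The wild-type pieces lay apart from the other 6, whose values overlapped. The increase was 1.52 in tumor (SE 0.07, adjusted p = 1.78e-08) and 1.43 in adjacent-labelled liver (SE 0.07, adjusted p = 3.6e-08). Of its 2 other probe sets, one gave 1.63 and 1.51, and the other 0.86 and 0.84, below the 2-fold limit. The 2 other membrane-type genes tested had differences between -0.11 and 0.03 in the 3 comparisons.

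The gelatinases, which degrade denatured collagen and basement membrane, were not called in any comparison. Mmp2, a product of stellate cells and fibroblasts, was at 6.81, 6.80 and 6.52 in the wild-type pieces, 7.29, 7.76 and 7.30 in the adjacent-labelled pieces and 6.46, 6.92 and 6.87 in tumor. The adjacent-labelled pieces lay above all the others. Their difference from wild type was 0.74 (SE 0.15, adjusted p = 0.0017), that of tumor was 0.04 (adjusted p = 0.827), and tumor minus adjacent-labelled liver gave -0.70 (adjusted p = 0.00354). The other probe set of Mmp2 gave 0.78, -0.12 and -0.91 for these differences. Mmp9, the gelatinase of neutrophils and macrophages, differed from wild type by 0.23 in tumor (adjusted p = 0.0933) and by 0.10 in adjacent-labelled liver (adjusted p = 0.437). Mmp19 differed by 0.04 and -0.05, and its wild-type pieces spread over 7.33, 7.80 and 8.23.

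Among the inhibitors, Timp1 rose in both tissues and Timp4 in adjacent-labelled liver. Timp1, the inducible inhibitor secreted by stellate cells and hepatocytes in injury, was at 5.86, 5.59 and 5.54 in the wild-type pieces, 7.85, 8.08 and 7.91 in the adjacent-labelled pieces and 7.17, 7.11 and 7.48 in tumor. The 3 tissues did not overlap, with adjacent-labelled liver highest. The increase was 2.29 in adjacent-labelled liver (SE 0.11, adjusted p = 5.68e-08) and 1.59 in tumor (SE 0.11, adjusted p = 6.32e-07). Tumor minus adjacent-labelled liver was -0.70 (SE 0.11, adjusted p = 0.00058).

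Timp4, an inhibitor known mostly from heart and adipose tissue, was at 5.03, 5.34 and 5.08 in the wild-type pieces, 6.87, 7.33 and 7.58 in the adjacent-labelled pieces and 4.87, 4.86 and 5.07 in tumor. The adjacent-labelled pieces lay above the other 6. Their difference was 2.11 from wild type (SE 0.16, adjusted p = 1.01e-06), and tumor minus adjacent-labelled liver was -2.32 (SE 0.16, adjusted p = 1.24e-06), while tumor differed from wild type by -0.21 (95% interval -0.56 to 0.13). The other probe set of Timp4 was at 3.43 in the wild-type pieces, 7.93 in the adjacent-labelled pieces and 3.44 in tumor, a difference of 4.50 from wild type and of -4.49 between tumor and adjacent-labelled liver. Wild-type and tumor values of both probe sets were near or below the 40th percentile, so the size of the difference depends on background. Timp4 thus passed the filter only through the adjacent-labelled pieces, in which it is high, and its adjusted p-values are descriptive. The adipose markers Adipoq and Lep did not pass the filter, and Plin1 and Cfd had no probe set assigned to them alone. The source of the Timp4 signal was not tested.

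Timp3, the matrix-bound inhibitor that also blocks ADAM17, was at 8.78 ± 0.07 in the wild-type pieces, 9.59 ± 0.35 in the adjacent-labelled pieces and 9.58 ± 0.18 in tumor. Its difference was 0.81 in each (SE 0.15), with adjusted p = 0.000859 and 0.00084, below the 2-fold limit. Its 3 other probe sets gave 0.73 to 0.98 in tumor and 0.76 to 1.18 in adjacent-labelled liver. With the most variable probe set Timp3 was called higher in adjacent-labelled liver, at 1.18. Timp2, which also takes part in the activation of pro-MMP2, varied among pieces of the same tissue, at 8.07 to 8.75 in the wild-type pieces, 8.70 to 9.27 in the adjacent-labelled pieces and 8.49 to 9.28 in tumor. Its differences from wild type were 0.50 (adjusted p = 0.081) in tumor and 0.46 (adjusted p = 0.108) in adjacent-labelled liver, and 5 other probe sets gave -0.07 to 0.54 in tumor and -0.16 to 0.57 in adjacent-labelled liver, of which 1 with a smaller spread gave 0.54 (adjusted p = 0.00225) and 0.45 (adjusted p = 0.00799).

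Reck was lower in the tumor. It was at 6.87, 6.93 and 6.45 in the wild-type pieces, 6.55, 6.44 and 6.45 in the adjacent-labelled pieces and 5.55, 5.41 and 5.96 in tumor. The tumor pieces lay below the other 6, and wild-type and adjacent-labelled values overlapped. The difference was -1.11 from wild type (SE 0.15, adjusted p = 7.89e-05) and -0.84 from adjacent-labelled liver (SE 0.15, adjusted p = 0.00099), while adjacent-labelled liver differed from wild type by -0.27 (95% interval -0.60 to 0.06). Without tumor replicate 2 the difference from wild type was -0.99 and no longer met the 2-fold limit.

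**Figure D2:**
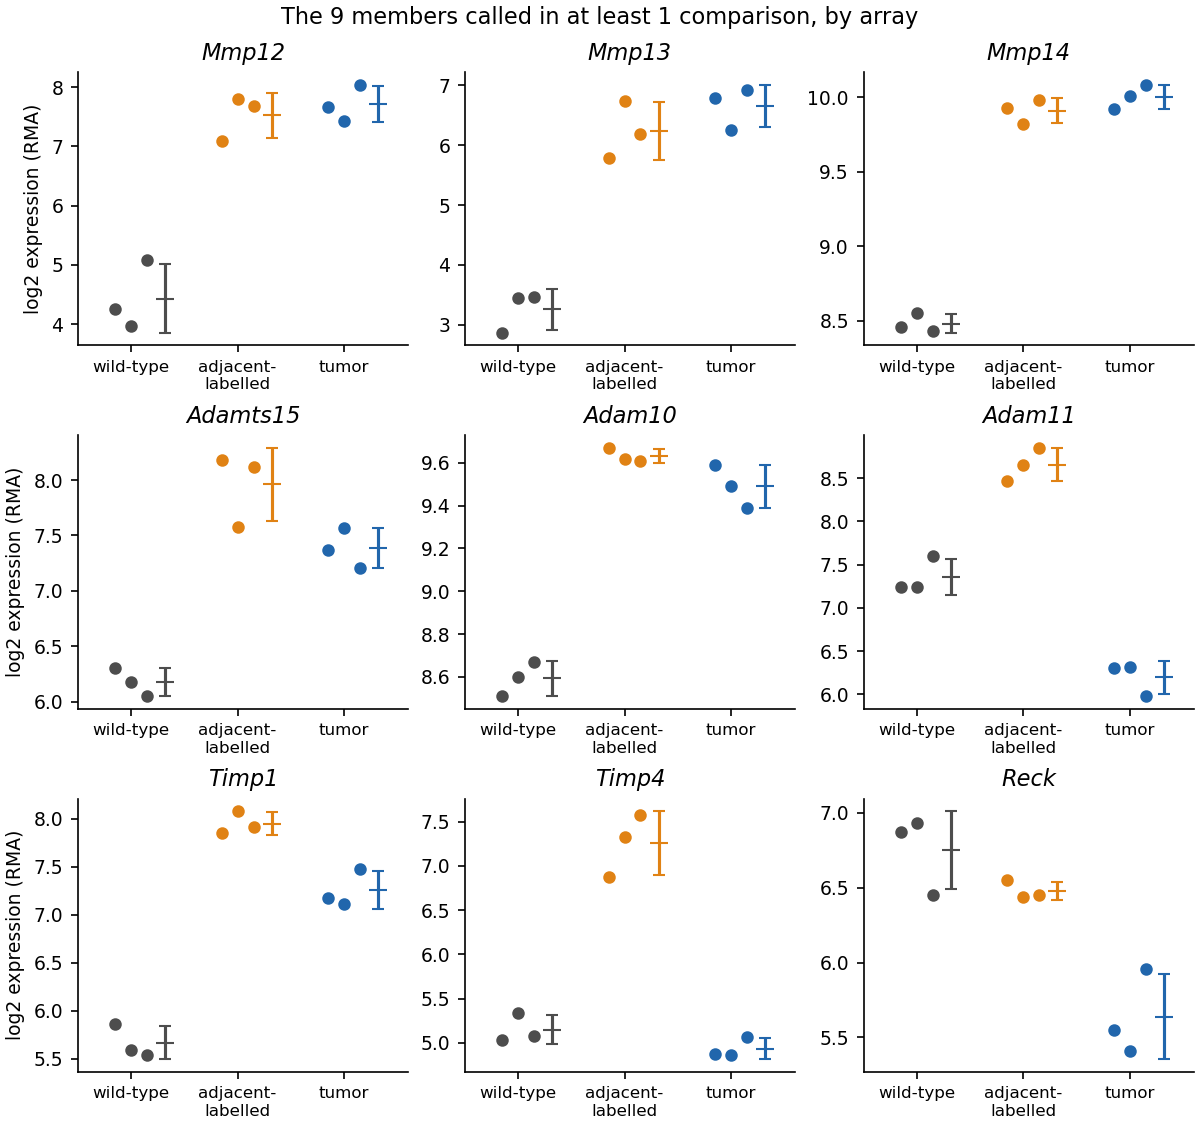
Log2 expression of the 9 genes called in at least 1 comparison in each of the 9 pieces (points), with the mean and SD of the 3 pieces beside them, each panel on its own axis. Mmp12, Mmp13, Mmp14 and Adamts15 were higher in all 6 adjacent-labelled and tumor pieces than in wild type, Timp4 only in the adjacent-labelled pieces, and Reck was lower in the tumor pieces.

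Of the ADAM genes, Adam11 and Adam10 were called. Adam11, which encodes a protein without protease activity known mainly from the nervous system, was at 7.24, 7.24 and 7.60 in the wild-type pieces, 8.47, 8.65 and 8.85 in the adjacent-labelled pieces and 6.30, 6.32 and 5.98 in tumor. The 3 tissues did not overlap, and tumor and adjacent-labelled liver moved to opposite sides of wild type. The difference from wild type was 1.30 in adjacent-labelled liver (SE 0.13, adjusted p = 1.11e-05) and -1.16 in tumor (SE 0.13, adjusted p = 2.34e-05). Tumor minus adjacent-labelled liver was -2.45 (SE 0.13, adjusted p = 2.9e-07). Its other probe set had the same directions with smaller sizes, at 0.66, -0.60 and -1.26, of which only the last passed the 2-fold limit. With the mean of both probe sets neither difference from wild type was called, at 0.98 and -0.88.

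Adam10, the sheddase of Notch receptors and E-cadherin, was at 8.51, 8.60 and 8.67 in the wild-type pieces, 9.67, 9.62 and 9.61 in the adjacent-labelled pieces and 9.59, 9.49 and 9.39 in tumor. All 6 adjacent-labelled and tumor pieces were above wild type, with the tumor pieces just below the adjacent-labelled ones. The difference was 1.04 in adjacent-labelled liver (SE 0.07, adjusted p = 3.86e-07), just past the 2-fold limit, and 0.89 in tumor (SE 0.07, adjusted p = 9.83e-07), just under it. The call in adjacent-labelled liver was lost without wild-type replicate 1 (1.00 after rounding) and with cyclic loess normalization (0.97). Its 3 other probe sets gave 1.19, 0.64 and -0.06 in adjacent-labelled liver.

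Adam17, the sheddase of tumor necrosis factor and of EGF receptor ligands, was at 8.02, 7.98 and 8.22 in the wild-type pieces, 8.28, 8.15 and 8.33 in the adjacent-labelled pieces and 8.52, 8.57 and 8.59 in tumor. The tumor pieces lay above all the others, by 0.49 over wild type (SE 0.08, adjusted p = 0.000239) and 0.31 over adjacent-labelled liver (adjusted p = 0.0073), both below the 2-fold limit. Adam9 was lower, at 10.65 ± 0.13 in the wild-type pieces, 10.24 ± 0.10 in the adjacent-labelled pieces and 10.05 ± 0.11 in tumor, with differences of -0.42 (adjusted p = 0.00179) and -0.61 (adjusted p = 0.000122). Of the 10 tested ADAMs outside the testis group, 5 had a higher and 3 a lower level in tumor at an adjusted p under 0.05 with no minimum difference. Over all genes tested, 33.2% were higher and 30.2% lower on that rule. All 4 tested testis-associated ADAMs had differences from wild type between -0.37 and -0.09, Adam4 among them at -0.17 in tumor. Adam1a and Adam1b are related copies whose sequences were not compared here, so their separate values may be uncertain.

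**Figure D3:**
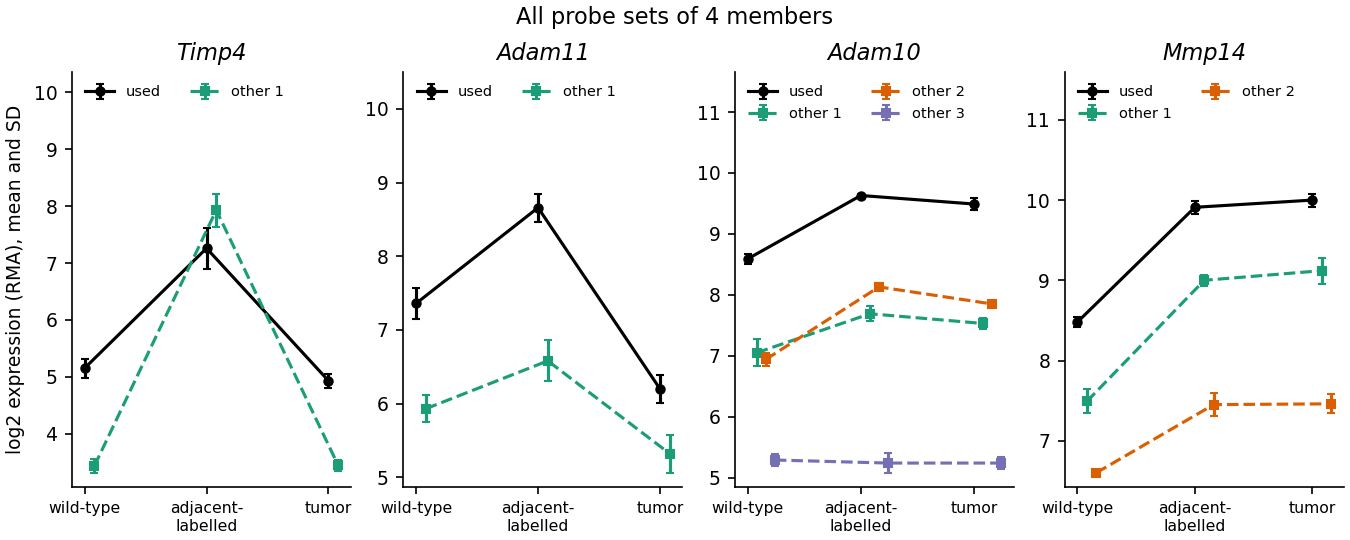
Mean log2 expression with SD (n = 3 pieces) of every probe set of Timp4, Adam11, Adam10 and Mmp14 by tissue. The probe set used is in black, and lines join the tissues only to guide the eye. Both probe sets of Timp4 and of Adam11 peaked in adjacent-labelled liver, and 1 dim probe set of Adam10 was level across tissues.

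In the ADAMTS family, Adamts15, which cuts the proteoglycans versican and aggrecan, was at 6.30, 6.18 and 6.05 in the wild-type pieces, 8.18, 7.58 and 8.12 in the adjacent-labelled pieces and 7.37, 7.57 and 7.21 in tumor. The 3 tissues did not overlap, though adjacent-labelled replicate 2 lay just above the highest tumor piece. The increase was 1.79 in adjacent-labelled liver (SE 0.15, adjusted p = 2.84e-06) and 1.21 in tumor (SE 0.15, adjusted p = 4.92e-05). The other ADAMTS genes tested were not called, although most had an adjusted p under 0.05. Of 6 tested proteoglycanases, 4 were higher in each tissue than in wild-type liver on the adjusted p alone. Of 4 others tested, 3 were higher in each. Over all genes tested, 33.2% were higher in tumor and 34.0% in adjacent-labelled liver on that rule. Adamts1 differed by 0.46 in tumor (adjusted p = 0.00491) and 0.42 in adjacent-labelled liver (adjusted p = 0.0088). Adamts10 differed by 0.78 (adjusted p = 3.57e-05) and 0.44 (adjusted p = 0.00213). The 1 procollagen N-proteinase measured, Adamts3, was under the filter, at 3.71 ± 0.11, 3.49 ± 0.10 and 3.53 ± 0.06 in wild-type liver, adjacent-labelled liver and tumor.

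On the adjusted p alone, 19 of the 41 genes were higher in tumor than in wild-type liver (46.3%, against 33.2% of all genes) and 7 were lower (17.1%, against 30.2%). For adjacent-labelled liver these were 20 (48.8%, against 34.0%) and 5 (12.2%, against 28.9%). Between tumor and adjacent-labelled liver they were 4 (9.76%, against 20.1%) and 6 (14.6%, against 25.1%). Some members passed the filter through the groups in which they are high. Mmp12 and Mmp13 exceeded the percentile only on the 6 adjacent-labelled and tumor arrays. Timp4 did so on 4 arrays, among them the 3 adjacent-labelled ones, and Adamts12 on 3, none of them wild-type. These shares and the counts of called genes are therefore a description only.

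Genes that work with these proteases were read from 6 lists chosen with earlier results of these data known. Over all genes tested, 8.41% were called higher and 4.59% lower in tumor, and 8.30% and 3.22% in adjacent-labelled liver. The first list holds partners of ADAM10 and ADAM17. Of 9 tested, 4 were called higher and 0 lower in tumor, with a median of 0.99, and 3 higher and 1 lower in adjacent-labelled liver, with a median of 0.73. Rhbdf1, which encodes iRhom1, a carrier that brings ADAM17 to the cell surface, rose by 1.95 in tumor (SE 0.09) and 1.90 in adjacent-labelled liver. Frmd8, which stabilises that carrier, rose by 1.81 and 1.14. Of the tetraspanins that guide ADAM10, Tspan15 rose by 1.14 and 1.59, and Tspan17 rose by 2.69 in tumor, against 0.95 in adjacent-labelled liver, where it missed the 2-fold limit. Tspan33 fell by 1.97 in adjacent-labelled liver, and tumor minus adjacent-labelled liver was 1.76.

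Of 23 tested proteins that ADAMs shed, 9 were called higher and 1 lower in tumor (median 0.53), and 6 higher and 2 lower in adjacent-labelled liver (median 0.44). The EGF receptor ligand Btc rose by 2.86 and 2.36, the hyaluronan receptor Cd44 by 2.07 and 2.12, and Tgfa by 1.20 in tumor (0.54, not called, with the mean of its probe sets). The cell adhesion gene Cdh1 rose by 2.93 and 3.45. The interleukin 6 receptor Il6ra was lower, at -1.59 and -1.90. Egfr, itself a receptor for shed ligands, fell by 2.12 in adjacent-labelled liver, and tumor minus adjacent-labelled liver was 1.25 (0.78, not called, with the mean of its probe sets).

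Of 21 tested matrix substrates, 9 were called higher and 0 lower in each tissue, with medians of 0.54 in tumor and 0.70 in adjacent-labelled liver. The basement membrane gene Nid1 rose by 3.95 in tumor and 3.00 in adjacent-labelled liver, Col5a2 by 2.38 and 2.87, Col1a1 by 2.66 and 3.15, Col3a1 by 2.47 and 2.71, and Lamc1 by 1.29 in adjacent-labelled liver (0.84, not called, with the mean of its probe sets). Col4a1 rose by 2.32 in adjacent-labelled liver and by 1.24 in tumor, and tumor minus adjacent-labelled liver was -1.08, which fell short of the limit without adjacent-labelled replicate 2 (-0.92).

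Of 15 tested genes for the activation of proproteases, 4 were called higher and 2 lower in tumor, and 2 higher and 1 lower in adjacent-labelled liver, with medians of -0.05 and -0.11. The membrane serine protease St14 rose by 2.09 in tumor, against -0.17 (adjusted p = 0.0971) in adjacent-labelled liver, and the urokinase receptor Plaur by 1.32 in tumor. Prss8, which encodes prostasin, rose by 2.74 in tumor and 2.84 in adjacent-labelled liver, and Plat, the tissue plasminogen activator, by 2.70 and 2.28. The tumor pieces spread widely for Plat (SD 1.04), and its tumor difference was 2.11 to 3.06 without 1 piece. Lower were Klkb1, plasma prekallikrein, at -1.89 in tumor, and the proprotein convertase Pcsk6 at -1.18 in tumor and -1.08 in adjacent-labelled liver, the latter just short of the limit without adjacent-labelled replicate 2 or with array weights. Of 10 other protease inhibitors tested, Serpinb6a was called higher in both tissues, at 2.52 in tumor and 2.51 in adjacent-labelled liver, and Tfpi2 lower, at -1.76 and -1.60. Mug1, of the alpha-macroglobulin family, was lower in adjacent-labelled liver at -1.33.

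Of 16 tested regulators known to induce MMP genes, 4 were called higher and 0 lower in each tissue, with medians of 0.64 in tumor and 0.31 in adjacent-labelled liver. Among AP-1 genes, Junb rose by 1.51 in tumor and 1.08 in adjacent-labelled liver, and Jun by 1.39 in adjacent-labelled liver. Of the ETS factors, Ets2 rose by 1.47 and 2.01, and Etv5 rose by 1.70 in tumor. The cytokine Tgfb1 rose by 1.39 and 1.20. With the mean of their probe sets, Ets2 in tumor (0.75) and Tgfb1 in both tissues (0.70 and 0.56) were not called. Etv4 was 1.02 higher in tumor than in adjacent-labelled liver. That call was lost without adjacent-labelled replicate 3 (0.93) and without tumor replicate 1 (0.98) or 2 (0.99), and with the mean of its probe sets (0.63).

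Marker lists of cell types that the tissue could hold were read from the same arrays. In bulk tissue, more cells of a type and more RNA per cell cannot be told apart. Of 12 stellate cell and fibroblast markers, 6 were called higher and 1 lower in tumor and the same numbers in adjacent-labelled liver. The lower one was Lrat, of quiescent stellate cells, at -1.11 and -1.02. Their summed linear level was 8660 to 11500 in the wild-type pieces, 14100 to 18000 in the adjacent-labelled pieces and 14700 to 20500 in tumor. Of 7 recruited macrophage markers, 4 were called higher in each, with sums of 2280 to 2530, 7680 to 8680 and 8250 to 9450. Much of that sum was Cd9, at 11.88 in adjacent-labelled liver on the log2 scale, which other cells also express. Ccr2 of the same list was lower, at -0.26 in tumor and -0.22 in adjacent-labelled liver, within the 2-fold limit. Trem2 and Fcgr4 rose by less than 2-fold and were not called. Of 7 neutrophil markers measured, 3 were called higher in each, with sums of 524 to 559, 1370 to 1760 and 1670 to 2050. The rise in that sum was mostly S100a8, at 3.27 in tumor and 2.82 in adjacent-labelled liver, and S100a9, at 2.63 and 2.41. Mpo differed by 0.01 and 0.03. The 8 Kupffer cell and macrophage markers were mixed, with 2 higher and 1 lower in tumor and 1 higher and 2 lower in adjacent-labelled liver, and sums of 7200 to 7840, 7540 to 12900 and 10900 to 13000.

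The cholangiocyte list, with 1 of 5 called higher in each tissue, had sums of 432 to 464, 1980 to 2260 and 1020 to 1150. The rise in that sum over wild type was mostly Cldn7. All measured markers of these 5 lists passed the filter, and Col1a1, Col1a2, Col3a1, Lum and Dcn stand in both the stellate cell and the matrix lists. Of the 8 endothelial markers, 1 was called higher in each tissue and 1 lower in adjacent-labelled liver (Clec4g, at -1.03), with sums of 4730 to 5160, 3070 to 4430 and 3820 to 4880. Of 6 hepatocyte markers tested, 0 were called higher, with sums of 102000 to 103000, 87400 to 89600 and 82300 to 84100. Called lower were Tat, at -2.55 in tumor and -1.75 in adjacent-labelled liver, and Cps1, at -1.37 in tumor. None of the 6 T cell markers was called. Of 4 B cell markers tested, 2 were called higher in tumor and 0 in adjacent-labelled liver, relative to wild type. Between tumor and adjacent-labelled liver 1 was called higher. The B cell sum was 330 to 354, 398 to 442 and 1050 to 1470. Of the 8 male germ cell markers, 5 were below the percentile on every array. The part of these cells in the protease values was not tested.

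**Figure D4:**
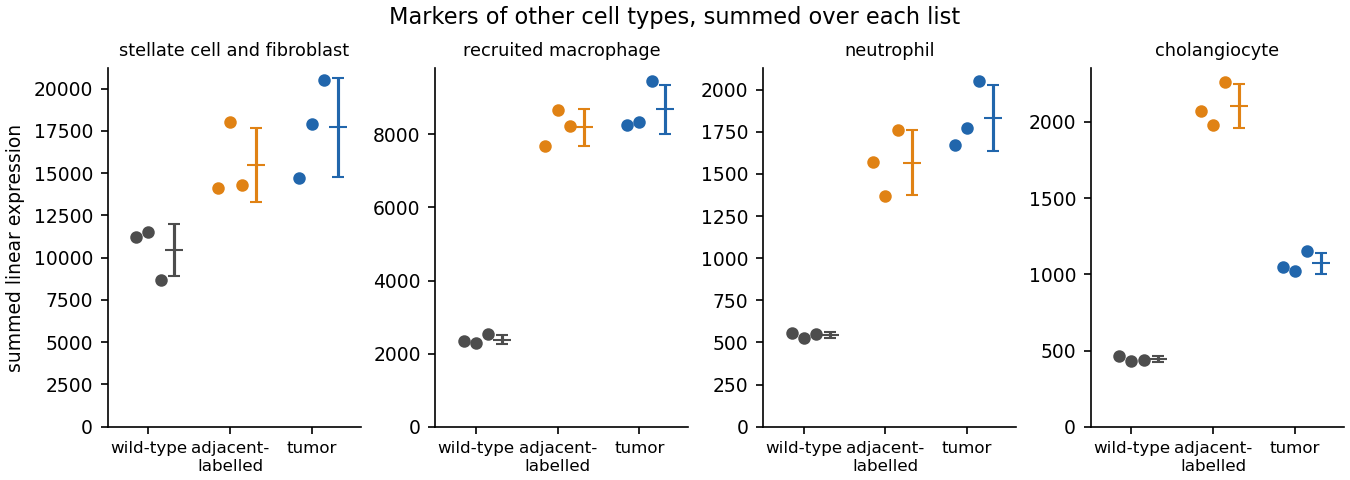
Summed linear expression of 4 marker lists in each piece (points) with the mean and SD of the 3 pieces of a tissue. The recruited macrophage and neutrophil sums of all 6 adjacent-labelled and tumor pieces lay above wild type, and the cholangiocyte sum was highest in adjacent-labelled liver. Single genes weigh heavily in these sums, Cd9 in the recruited macrophage list and Cldn7 in the rise of the cholangiocyte list.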

How the data were processed

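The authors deposited log2 expression values per probe set. The submitters' processing notes name RMA and Affymetrix Expression Console (version 1.3.1.187). RMA equalises array distributions and so hides a shift common to most genes. Array medians were 5.76 to 5.81. The log base was taken from the maximum of 14.51, which as a power of 2 fits a 16-bit scanner. No detection calls were used, and the number of arrays limits the precision.

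Of 45101 probe sets, 34958 had 1 gene symbol, 932 several and 9211 none in the platform annotation. Of the first, 13 control probe sets were left out. All 66 genes matched RefSeq (GRCm38.p6) with 0 symbols changed. The 3 groups of 9 arrays were fitted in 1 limma model (limma 3.58.1, R 4.3.3), with Benjamini-Hochberg adjustment over 13887 genes, and the fit was tested on simulated data. Intervals are 95%. Other probe sets were fitted with all named probe sets and no filter, an alternative added after the data were seen. The fits were repeated with other settings for the filter, the choice or mean of probe sets, array centring, cyclic loess, array weights, a trended robust fit, each pair of groups alone, a replicate block, other call rules and each piece left out. Protein sequences were not used here.

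The members and lists were chosen with earlier results of these data known. Genes named are those called in any comparison, 10 fixed ones (Timp1 to Timp4, Reck, Mmp2, Mmp9, Mmp14, Adam10, Adam17), the brightest of each role and up to 4 called genes per list and comparison. Genes named for their position or as markers are outside that rule.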

Additional observations from a re-analysis of the deposited data

Results flagged for a closer look

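Adam11 and Timp4 were selected because their differences from wild-type liver pointed to opposite sides in tumor and adjacent-labelled liver, with the difference between those tissues itself called by limma. For Adam11 tumor minus adjacent-labelled liver was -2.45 (adjusted p = 2.9e-07), from 1.30 in adjacent-labelled liver and -1.16 in tumor relative to wild type. With the mean of the Adam11 probe sets the differences from wild type were 0.98 and -0.88, without a call. For Timp4 it was -2.32 (adjusted p = 1.24e-06), from 2.11 and -0.21, the latter not distinguishable from 0 (adjusted p = 0.252). Timp4 passed the filter only through the adjacent-labelled pieces, so its adjusted p-values are descriptive. With its most variable probe set the tumor difference was 0.01, so the opposite sides of Timp4 hold only for the probe set used. Groups of 3 are too small for a test of single outlying pieces.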

How the results depend on the processing

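The counts of called genes moved by more than 1.5 times in few settings. With the adjusted p alone, 19 genes were higher and 7 lower in tumor, 20 and 5 in adjacent-labelled liver, and 4 and 6 between tumor and adjacent-labelled liver. With the mean of probe sets, 1 gene was lower in tumor. Leaving out 1 piece gave 5 to 5 higher and 1 to 2 lower in tumor, 7 to 8 and 0 to 0 in adjacent-labelled liver, and 0 to 0 and 2 to 2 between the 2. A replicate block left every count as it was (5 and 2, 8 and 0, 0 and 2). Pairing of pieces by replicate number was not shown. By the labels only adjacent-labelled liver and tumor share an animal. Deviations of their same-numbered pieces correlated at 0.09, 0.06 and 0.04, against -0.17 to 0.10 for pieces of different number. With 3 pieces per group this is a weak check. The block changed no call. With the mean of probe sets Adam10 was at 0.70 in adjacent-labelled liver, without a call. Values that changed sign were small. Mmp2 in tumor gave -0.04 (mean of probe sets) and -0.12 (most variable probe set), and -0.05 to 0.18 without 1 piece. Mmp9 in adjacent-labelled liver gave -0.01 (mean of probe sets), and Timp4 in tumor 0.01 (most variable). Between tumor and adjacent-labelled liver, Timp2 gave -0.03 (most variable) and -0.13 to 0.27 without 1 piece, and Timp3 gave 0.10 (array weights) and -0.12 to 0.19. A dim probe set of Adam10 gave -0.06 in adjacent-labelled liver. Apart from the array weights and the pieces left out, the cause was the choice of probe set. Of all single-gene values recomputed, 2013 kept direction and side of the threshold, 26 lost and 11 gained a call, and 17 changed sign. Low signals cannot be told from background.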
